A study of Mus musculus with 22 samples.

Results

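The genes described here are the cytosolic ribosomal protein genes of the mouse hypothalamus, followed in mice that had received fibroblast growth factor 1 (FGF1) once into a cerebral ventricle (icv). Members were set by a rule on the gene symbol, and this set of genes was chosen with earlier results of these data known. A gene was taken if its symbol was Rpl or Rps followed by a digit, or was Rplp0, Rplp1, Rplp2 or Rpsa, and pseudogene symbols and the Rps6k kinases were dropped. This gave 84 of the 20668 genes counted in nuclei and 85 of the 16304 genes counted in whole cells, with Rpl13 found in whole cells alone and 84 genes found in both. By role, the 85 comprised 43 proteins of the large subunit, 31 of the small subunit, 3 of the stalk and 7 paralogs or expressed copies. The remaining gene, Rps19bp1, encodes a protein that binds Rps19 and is not itself part of the ribosome.

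A ribosome is built from a small subunit, which reads the mRNA, and a large subunit, which joins amino acids, and each carries one copy of most of its proteins. The stalk proteins Rplp0, Rplp1 and Rplp2 protrude from the large subunit and recruit the elongation factors. Many ribosomal protein mRNAs begin with a C followed by a run of pyrimidines, the 5′ terminal oligopyrimidine (TOP) tract, through which growth factor signalling by way of mTOR controls their translation. Their RNAs are abundant in the cytoplasm, so that nuclei hold a smaller share of them than whole cells.

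All mice were leptin-deficient obese (ob/ob) males of 11 weeks, and each sample was hypothalamic tissue of 1 mouse. FGF1 mice received 3 µg of FGF1, and vehicle mice received PBS and were pair-fed (PF) to the intake of FGF1 mice. Both groups thus carried the ob/ob mutation. Single-nucleus RNA-seq (snRNA-seq) covered 3 FGF1 and 3 vehicle mice on Day 1 (24 h) and 2 FGF1 and 2 vehicle mice on Day 5. Whole dissociated cells were profiled by droplet RNA-seq in 6 FGF1 and 6 vehicle mice, also of Day 5, from which the study had removed neurons. Per the paper, nuclei came from hypothalamic punches of mice from Jackson Laboratories. Whole cells came from a triangular piece of the mediobasal hypothalamus of mice from Janvier Labs.

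Day 1 nuclei numbered 13206 (1081 to 4973 per mouse), Day 5 nuclei 11759 and whole cells 54890 (1967 to 7926 per mouse). Libraries held 3529889 to 12612245 unique molecular identifiers (UMIs) in Day 1 nuclei, 2721087 to 16345981 in Day 5 nuclei and 2652897 to 11866269 in whole cells. The sequences of 638 nuclei barcodes and 3616 cell barcodes occurred in more than 1 library. Nuclei annotated as tanycytes met 6 of 7 tanycyte markers and also 7 of 7 astrocyte markers, ependymal nuclei met 5 of 5 ependymal and 6 of 7 astrocyte markers, and astrocyte nuclei met 7 of 7 astrocyte markers. Whole-cell clusters are numbered in the metadata. By the same markers, clusters 0 (3 of 7), 7 (3 of 7) and 10 (5 of 7) were tanycyte-like, 6 was ependymal-like (6 of 6), 1 and 4 were astrocyte-like (7 of 7 each), 2 and 11 were oligodendrocyte-like (7 of 7 each) and 5 was like oligodendrocyte precursors, OPC (7 of 7). Ependymal cells and tanycytes form the lining of the third ventricle. Each deposited batch paired 1 FGF1 with 1 vehicle mouse, and what the batch stands for is not given in the sources used here.

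To show the start of the transcript on which the TOP tract is read, 30 bases around the annotated start of 6 members are printed, 15 before it and 15 from it onward, from RefSeq on GRCm38.p6. Capitals mark a C followed by at least 4 bases that are each C or T, read on the transcript's strand and beginning within 5 bases of the start. Rps18 was 1 of 3 small-subunit genes called with FGF1 in tanycytes, ependymal cells and cluster 0, with Rps3 and Rps4x. Rps6 is the subunit protein phosphorylated by S6 kinase. Rps27 and its copy Rps27rt have tracts of 9 and 6 bases and share the end of the tract and the bases after it, but not those before it. Rplp0 and Rps4x, which were called in more comparisons than any other member, have no such run in this window. They lie at chr17:33955651-33955680 (Rps18, minus strand), chr4:86857353-86857382 (Rps6, minus), chr3:90213634-90213663 (Rps27, minus), chr9:114982725-114982754 (Rps27rt, minus), chr5:115559452-115559481 (Rplp0, plus) and chrX:102189377-102189406 (Rps4x, minus), each across the first base of the gene's first exon.
Rps18: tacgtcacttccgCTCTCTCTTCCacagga
Rps6: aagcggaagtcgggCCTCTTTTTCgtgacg
Rps27: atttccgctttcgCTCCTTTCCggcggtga
Rps27rt: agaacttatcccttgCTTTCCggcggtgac
Rplp0: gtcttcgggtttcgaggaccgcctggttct
Rps4x: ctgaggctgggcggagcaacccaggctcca

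Of 77 members with a principal coding transcript, 12 (15.6%) had the tract exactly at the first base that GENCODE annotates, against 525 of 17281 genes (3.04%). These starts are not the RefSeq starts printed above, and the 2 can disagree. Rpl4 has the tract at its GENCODE start and none around its RefSeq start, while Rps18, Rps6 and Rps27 have a run around the RefSeq start and none at the GENCODE first base. The same tract stood at the first base of 3 of 36 translation factors, 1 of 46 ribosome biogenesis genes and 5 of 69 nuclear-encoded subunits of oxidative phosphorylation (OXPHOS). Anywhere within 5 bases of the start, 18.3% of 32851 RefSeq promoter entries held it. Since 64 of the 85 members had such an entry, fewer than 80%, a share of members on that table is void and is not given. Annotated starts can miss the base at which transcription begins, and no match says only that these letters are not there.

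In Day 1 nuclei, ribosomal protein genes took a larger share of UMIs in FGF1 than in vehicle tanycytes and ependymal cells, in every mouse. In tanycytes the share was 6.71%, 3.63% and 3.01% in FGF1 replicates 1, 2 and 3 and 2.02%, 2.37% and 1.62% in vehicle replicates 1, 2 and 3. In ependymal cells it was 3.03%, 2.54% and 3.11% (FGF1) and 1.79%, 1.49% and 1.88% (vehicle). The groups did not overlap in either type, which by itself puts FGF1 above vehicle in every batch. Within batches FGF1 was higher by 0.638 to 5.09 percentage points in tanycytes and by 0.752 to 1.61 in ependymal cells. A share over the members was given no test.

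Astrocytes did not show this separation. Their share was 6.63%, 2.35% and 2.17% in FGF1 mice and 2.43%, 5.43% and 1.603% in vehicle mice, and FGF1 minus vehicle was 5.02, −0.0814 and −3.26 percentage points in batches 3, 4 and 5. The mean was higher with FGF1 in 18 of 18 Day 1 types, but only in ependymal cells and tanycytes did all FGF1 mice lie above all vehicle mice. FGF1 replicate 1 stood apart in nuclei of nearly all types, at 1.96% of UMIs in unmapped neurons, against 0.828% and 0.814% in the other FGF1 mice and 0.809%, 1.19% and 0.890% in vehicle mice. Without FGF1 replicate 1, the members' median log2 fold change was negative in 14 of 18 types and positive in tanycytes, ependymal cells, vascular leptomeningeal cells (VLMC) and n29 neurons. In VLMC and in the neuron types GABA15, n02 and n06.Oxt that fit held 1 FGF1 mouse.

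**Figure D1:**
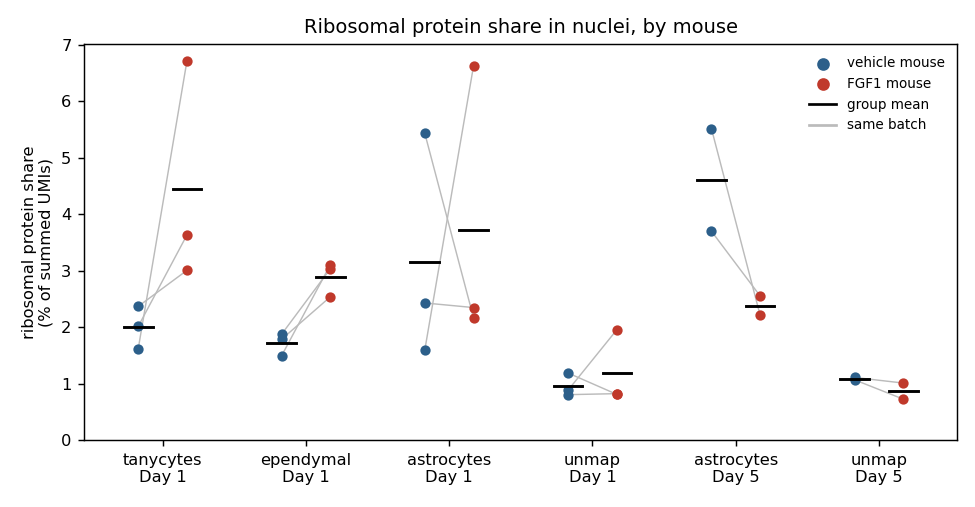
Ribosomal protein share of summed UMIs (%, y axis) in nuclei of each mouse, by annotated type and day, with vehicle mice in blue, FGF1 mice in red, group means as black bars and grey lines joining mice of 1 batch. On Day 1 the FGF1 mice sit above the vehicle mice in tanycytes (3.01% to 6.71% against 1.62% to 2.37%) and ependymal cells, astrocytes overlap, and on Day 5 the FGF1 astrocytes sit below at 2.21% and 2.55%.

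Depth differed between the groups in tanycytes. Median UMIs per nucleus ran from 2298 to 2846 with FGF1 and from 3384 to 3799 with vehicle, without overlap. The share of nuclear-encoded OXPHOS genes was 0.950% to 2.45% against 0.774% to 1.44%, that of mitochondrial (mt) genes 0.0745% to 0.131% against 0.0673% to 0.227%, and that of neuron markers 0.0655% to 0.104% against 0.0856% to 0.144%, all overlapping. In ependymal cells the median depth overlapped (2530 to 3234 against 2943 to 4873). Nuclei in which over 5% of UMIs were members or mt genes made up 8% to 79.8% of FGF1 and 0% to 5.71% of vehicle tanycytes. Without them the tanycyte share was 2.84% to 4.01% against 1.62% to 2.19%, still without overlap, and 5 members rather than 15 were called higher by the test described next. That limit is set on the members themselves. The part of depth and of these nuclei in the share was not tested.

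For each type, the UMIs of a mouse were added up per gene and the groups compared by edgeR, with a gene called at a false discovery rate (FDR) below 0.05 over all genes tested. Levels are CPM, the sums as counts scaled to a common library size, and fold changes are FGF1 over vehicle on the log2 scale with the standard error (SE) that the test implies. In such sums, less RNA per cell and another makeup of the cells under 1 name cannot be told apart. Counts of members at an unadjusted p below 0.05 are given without the share of all genes at that threshold. Nothing particular to the members is read from these counts.

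In Day 1 tanycytes (187 FGF1 and 87 vehicle nuclei), 15 of the 71 members tested were higher with FGF1 and none was lower, while 5.38% of all genes tested were called higher. Unadjusted p was below 0.05 for 63 of the 71, and the fold change was positive for all 71. Their median was 1.35, against 0.03 over all genes. For 48 of 71 members all FGF1 mice lay above all vehicle mice, against 14.6% of all genes. In batches 3, 4 and 5 the members' median log2 ratio was 2.49, 0.84 and 0.39.

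Of the stalk, Rplp0 and Rplp1 were higher and Rplp2 did not pass. Rplp0 stood at 759, 520 and 402 CPM in FGF1 replicates 1, 2 and 3 and at 127, 140 and 161 in vehicle replicates 1, 2 and 3. All 3 FGF1 mice were thus above all 3 vehicle mice, with a fold change of 2.01 ± 0.39 (SE) and FDR = 0.00669. Rplp1 rose by 1.63 ± 0.45 (FDR = 0.0404), from 269 to 551 CPM in vehicle mice to 820 to 2040 in FGF1 mice. Rplp2 had 1.27 ± 0.46 (FDR = 0.107) with groups that did not overlap, at 234 to 525 against 71.8 to 208 CPM.

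The small subunit held 9 of the 15 calls, from 29 genes tested, and the large subunit 2 from 34. Rps4x, a subunit protein encoded on the X chromosome, was at 1855, 704 and 653 CPM (FGF1) and 208, 365 and 161 (vehicle). It rose by 2.12 ± 0.51 (FDR = 0.0209), and the lowest FGF1 mouse was above the highest vehicle mouse. Rps18, at the head of the small subunit, was at 2270, 1089 and 787 CPM against 389, 449 and 323, a fold change of 1.84 ± 0.46 (FDR = 0.0242). Rps3, at the mRNA entry channel, was at 1892, 872 and 620 CPM against 380, 402 and 233, a fold change of 1.73 ± 0.47 (FDR = 0.0378). In each of these the 2 groups stood apart and FGF1 replicate 1 was the highest mouse. Rpsa, which also serves as the laminin receptor precursor, had 1.72 ± 0.49 (FDR = 0.0437), and Rps10, Rps26 and Rps7 were among the other small-subunit calls. The 2 of the large subunit were Rpl27a and Rpl13a, at 1.65 and 1.47.

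Rps2 had the largest fold change, 3.77 ± 0.83 (FDR = 0.0142), but on few counts. It stood at 767, 101 and 134 CPM in FGF1 and 36.1, 18.7 and 17.9 in vehicle mice, on 223 UMIs against 7 in all. Rps6 (1.47 ± 0.47, FDR = 0.0721) and Rpl22 (1.32 ± 0.48, FDR = 0.110) did not pass, although no vehicle mouse reached the FGF1 mice in either. The 2 lowest fold changes belonged to a copy and a paralog. Rps27rt had 0.16 ± 0.43 (FDR = 0.872) at 1945, 754 and 1021 CPM (FGF1) and 1419, 983 and 951 (vehicle), and Rpl22l1, the paralog of Rpl22, had 0.23 ± 0.46 (FDR = 0.810). Both overlapped between the groups. Paralogs were also called, with Rps27l at 1.88 ± 0.47 (FDR = 0.0242) and Rpl36al at 1.63 ± 0.42 (FDR = 0.0299). Counts of near-identical copies such as Rps27rt, Rpl6l or Rpl36al can be split between genes by the mapping, so their values are less certain.

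The tanycyte count rested on single mice. It was 0 without vehicle replicate 1, 3 without FGF1 replicate 1, vehicle replicate 2 or vehicle replicate 3, 7 without FGF1 replicate 2 and 25 without FGF1 replicate 3, while the members' median stayed between 0.76 and 1.59. It was 5 without nuclei over the 5% limit, 2 with the batch as a covariate and 22 by DESeq2.

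In Day 1 ependymal cells (59 FGF1 and 47 vehicle nuclei), 22 of 63 members were higher and none was lower, against 10.2% of all genes higher. Unadjusted p was below 0.05 for 34, the fold change was positive for 58 of 63 and the median was 0.73, against −0.05 over all genes. For 38 of 63 the FGF1 mice all lay above the vehicle mice, against 18.4% of all genes. The calls fell in 10 of 32 large-subunit, 10 of 25 small-subunit, 1 of 2 stalk and 1 of 4 paralog genes.

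Rpl36al had the largest fold change there, 2.33 ± 0.46 (FDR = 0.00188), at 775, 498 and 410 CPM (FGF1) and 59.3, 155 and 115 (vehicle). Rpsa was at 1936, 1519 and 1367 CPM against 415, 404 and 515, a fold change of 1.84 ± 0.30 (FDR = 0.000486). Rps4x was at 953, 1020 and 1060 CPM against 326, 249 and 286, a fold change of 1.80 ± 0.31 (FDR = 0.000686). All 3 genes were higher in every FGF1 mouse than in any vehicle mouse, and for Rps4x the FGF1 mice differed little among themselves. Rpl12, which helps to form the base of the stalk, rose by 1.95 ± 0.46 (FDR = 0.00630) and Rpl4 by 1.40 ± 0.34 (FDR = 0.00806). Rps6 (1.32), Rps3 (1.16) and Rplp1 (1.14) were called as well. Rplp0 was not, at 0.67 ± 0.41 (FDR = 0.277) although its groups did not overlap, nor was Rpl34, which had the lowest fold change (−0.68 ± 0.34, FDR = 0.180). The counts behind these values are low, with 59 against 11 UMIs for Rpl36al and 106 against 29 for Rps4x.

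The ependymal count was 6 without vehicle replicate 2, 9 without vehicle replicate 1, 12 without FGF1 replicate 1 and 14 without FGF1 replicate 3, with a median of 0.58 to 0.94 over the 6 fits that left out 1 mouse. It was 8 by DESeq2 and 12 with the batch as a covariate. Without both FGF1 replicate 1 and vehicle replicate 2, which stood high in many types, it was 2, and that in tanycytes was 22.

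The 2 lining types shared 7 called members, Rpl36al, Rplp1, Rps18, Rps26, Rps3, Rps4x and Rpsa, which is 46.7% of the tanycyte and 31.8% of the ependymal list. Both lists came from the same 6 mice, and 22 of all 63 ependymal members were called.

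In Day 1 astrocytes, 0 of 76 members passed edgeR and 1 passed DESeq2, 1 had an unadjusted p below 0.05, and 1.39% of all genes were called higher. The members' median was 0.42, and it ran from −0.50 without FGF1 replicate 1 to 1.198 without vehicle replicate 2. Rplp0 had 0.93 ± 0.57 (FDR = 0.747) and Rps4x 1.33 ± 0.84 (FDR = 0.777), with FGF1 replicate 1 and vehicle replicate 2 the highest mouse of its group in both. In the other 15 Day 1 types, 0 of 878 tests of a member in a type passed edgeR, 52 had an unadjusted p below 0.05 and medians ran from 0.11 to 1.01, the highest in VLMC with 2 FGF1 mice. DESeq2 called none either, and edgeR called 0.101% of all tests over the 15 types in either direction.

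**Figure D2:**
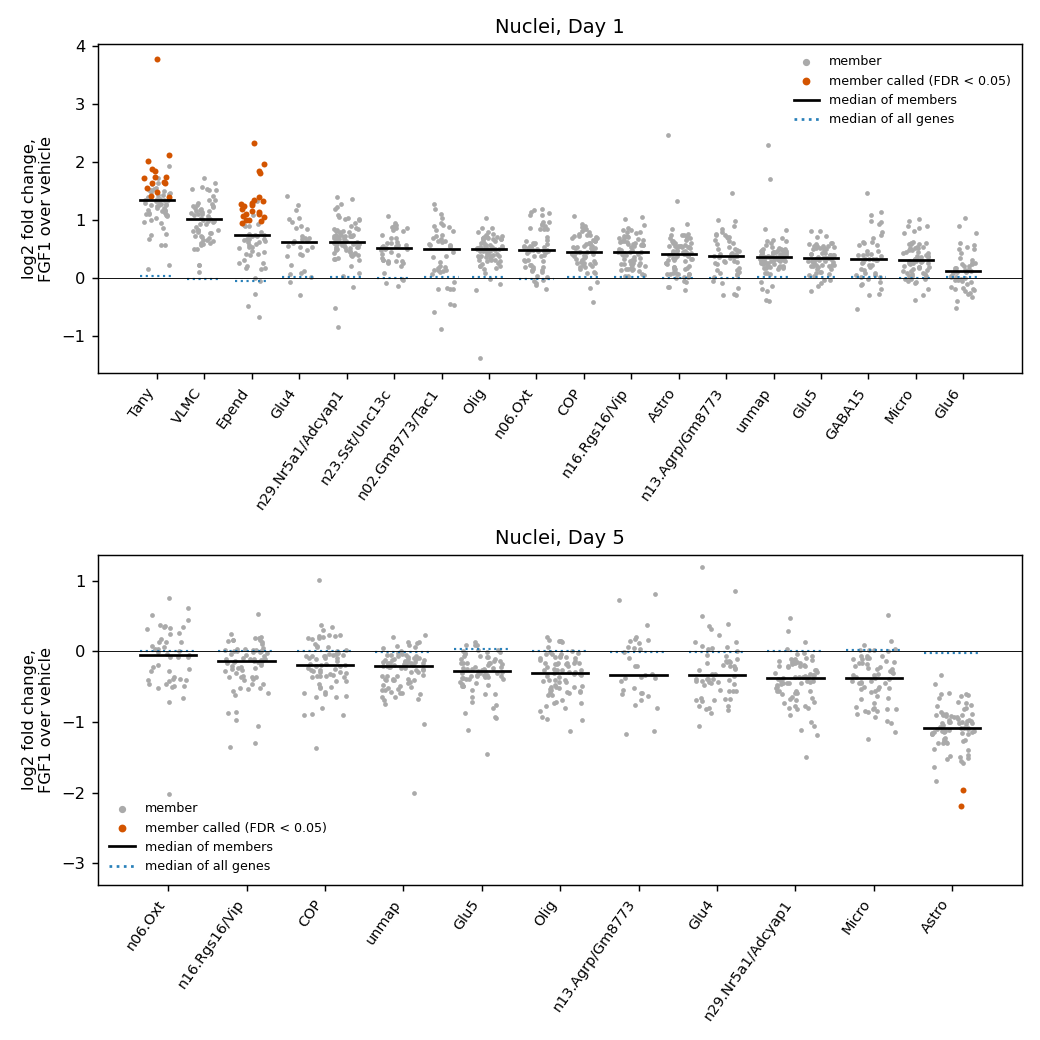
Log2 fold change, FGF1 over vehicle (y axis), of each member tested (points) in each annotated type of nuclei (x axis), Day 1 above and Day 5 below, with members called at FDR below 0.05 in orange, the members' median as a black bar and the median of all genes dotted. Day 1 calls are in tanycytes (15) and ependymal cells (22), and Day 5 calls are the 2 lower genes in astrocytes.

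Whether the FGF1 effect differed between types was tested as an interaction with the mouse as a block. Tanycytes against astrocytes gave 0 of 74 members (37 with an unadjusted p below 0.05), while 0.303% of all genes were called. Ependymal cells against astrocytes gave 0 of 71 (1 with an unadjusted p below 0.05, and 0% of all genes called), and tanycytes against ependymal cells 0 of 70 (6 with an unadjusted p below 0.05), while 1.37% of all genes were called. DESeq2 likewise called no member in these 3. The members' median difference was 0.92, 0.33 and 0.42 in turn, against 0.04, −0.08 and −0.04 over all genes. Without vehicle replicate 2 it was 0.40 for tanycytes and −0.25 for ependymal cells, each against astrocytes. Against unmapped neurons, a reference added after the data were seen, the effect in tanycytes was larger for 38 of 83 members, while 2.28% of all genes were called larger. Ependymal cells against unmapped neurons gave 0 of 82 by edgeR and by DESeq2 (12 with an unadjusted p below 0.05 in edgeR), while 0.720% of all genes were called. Of the 38, Rps13 differed most, by 1.80 ± 0.41 on the log2 scale (FDR = 0.000941). The 38 became 10 by DESeq2, 13 without vehicle replicate 2, and 14 without FGF1 replicate 1 or without FGF1 replicate 2.

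On Day 5, the nuclei held too few vehicle tanycytes (9 and 14) and ependymal cells (3 and 8) for a comparison. Tanycyte shares were 2.04% and 1.80% in the 2 FGF1 mice and 1.94% in vehicle replicate 38. With that lone vehicle mouse, only the size of the difference between days, the Day 1 effect minus the Day 5 effect, is given for tanycytes. It was positive for 73 of 76 members, with a median of 1.26 against −0.15 over all genes. In astrocytes the effect differed between days for 0 of 80 members (13 with an unadjusted p below 0.05), while 0% of all genes were called. The difference was positive for all 80, with a median of 1.44 against 0.04 over all genes. Without FGF1 replicate 1 that median was 0.65. DESeq2 called no member in the astrocyte test by day.

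Day 5 astrocyte nuclei had a smaller ribosomal protein share with FGF1. It was 2.21% and 2.55% in FGF1 replicates 37 and 45 and 5.52% and 3.70% in vehicle replicates 28 and 38. The fold change was below 0 for 78 of 78 members, with a median of −1.08 and an unadjusted p below 0.05 for 64. Only Rplp2 and Rpl7a passed, so that 2 of 78 members were lower, against 0.589% of all genes. Rplp2 was at 90.2 and 38.6 CPM (FGF1) against 340.1 and 198 (vehicle), a fold change of −2.19 ± 0.44 (FDR = 0.0259). Rpl7a, of the large subunit, was at 12.5 and 17.1 CPM against 60.2 and 63.5, a fold change of −1.96 ± 0.44 (FDR = 0.0490). In both genes the vehicle mice stood above the FGF1 mice. The groups did not overlap, with FGF1 lower, for 70 of 78 members and for 20.4% of all genes.

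Shares of other RNA in the same astrocyte nuclei are given as a description of 2 against 2 mice. The mt share was 0.542% and 0.692% (FGF1) against 1.17% and 1.16% (vehicle) and the OXPHOS share 1.38% and 1.63% against 3.53% and 1.72%. Neuron markers were at 0.141% and 0.153% against 0.215% and 0.166%. Nuclei in which over 5% of UMIs were members or mt genes made up 7.27% and 9.64% of FGF1 and 63.9% and 33.3% of vehicle astrocytes. Without them the shares were 1.89% and 2.28% against 3.13% and 2.08%, overlapping, and the difference of the means went from −2.23 to −0.521 percentage points. This limit, too, is set on the members. Leaving out 1 mouse left 1 mouse in its group, so no count is given for those fits, in which the members' median ran from −1.32 to −0.63. The part of these shares in the result was not tested.

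The share was lower in every FGF1 mouse than in any vehicle mouse in 8 of 11 Day 5 types of nuclei, with differences of the means of −0.296 to −0.130 percentage points in the 7 besides astrocytes. The 11 types come from the same 4 mice, so these are not 8 independent results, and with 2 mice against 2, 15.1% to 21.99% of all genes in a type lay lower without overlap. In the other 10 types, 0 of 652 tests of a member passed edgeR, 89 had an unadjusted p below 0.05 and medians ran from −0.38 to −0.05, while 0.243% of all tests were called in either direction. Over the 11 types, astrocytes included, the members' median was positive in 4 without FGF1 replicate 45 (Glu4, n06.Oxt, n16.Rgs16/Vip and unmap). It was positive in 3 without vehicle replicate 28 (COP, n06.Oxt and n16.Rgs16/Vip). Each of these fits left a lone mouse in the group that lost a mouse. That group then shows no spread, so the signs are descriptions and not a test of stability.

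In whole cells of Day 5, cluster 0 (tanycyte-like; 5458 FGF1 and 4051 vehicle cells) had a share of 15.7%, 16.3% and 18.1% (lowest, median and highest FGF1 mouse) against 13.1%, 14.8% and 15.3% (vehicle). The groups did not overlap, which by itself puts FGF1 above vehicle in every batch, and within batches it was higher by 0.602 to 3.60 percentage points. Here 32 of 84 members were higher and none was lower, against 2.64% of all genes higher. Unadjusted p was below 0.05 for 52, 77 of 84 fold changes were positive and their median was 0.28, against 0.00 over all genes. For 25 of 84 the groups did not overlap with FGF1 above, against 1.44% of all genes. Mice, their supplier, dissection, compartment and day all differ from those of the Day 1 nuclei, and the sizes of the 2 effects were not compared.

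**Figure D3:**
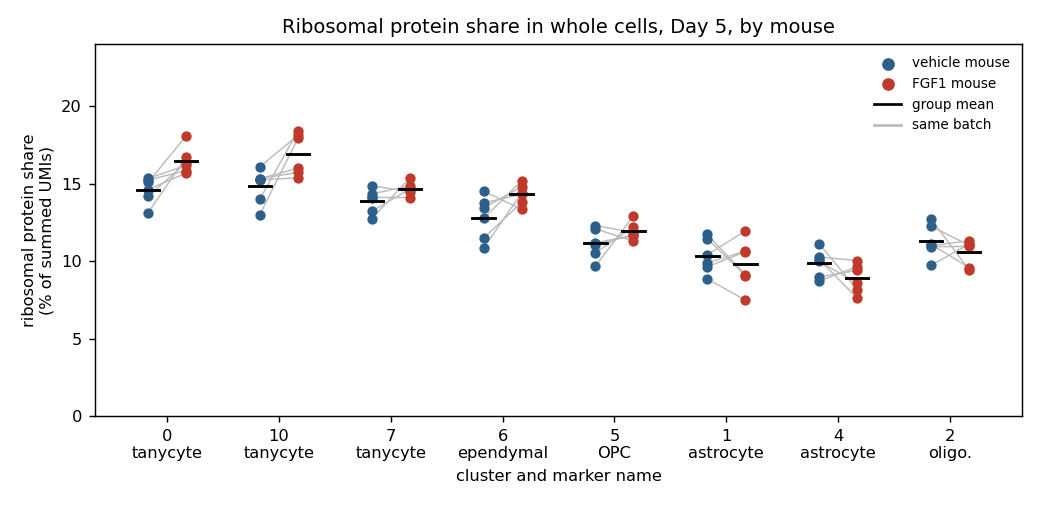
Ribosomal protein share of summed UMIs (%, y axis) in whole cells of each mouse on Day 5, by cluster (x axis), with vehicle mice in blue, FGF1 mice in red, group means as black bars and grey lines joining mice of 1 batch. In cluster 0 all 6 FGF1 mice (15.7% to 18.1%) lie above all 6 vehicle mice (13.1% to 15.3%), and the groups overlap in the other 7 clusters.

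Of the stalk in cluster 0, 1 of 3 genes was called. Rplp0 ran from 1144 through a median of 1553 to 1767 CPM in FGF1 mice and from 776 through 845 to 1066 in vehicle mice. All FGF1 mice exceeded all vehicle mice, with a fold change of 0.72 ± 0.12 (FDR = 0.000317). Its partners Rplp1 (0.19 ± 0.11, FDR = 0.342) and Rplp2 (0.15 ± 0.10, FDR = 0.438) did not pass and overlapped. Whether the 3 differ from each other was not tested.

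The large subunit held 16 calls of 43. Rpl7 was at 1317, 1584 and 1814 CPM (lowest, median, highest) against 886, 1023 and 1221, a fold change of 0.58 ± 0.11 (FDR = 0.00105). Rpl3, which lies by the peptidyl transferase centre, was at 1487, 1812 and 1955 CPM against 982, 1210 and 1348, a fold change of 0.55 ± 0.10 (FDR = 0.00126). Rpl10, which joins the large subunit last during its maturation, was at 2434, 2863 and 3321 CPM against 1496, 2008 and 2378, a fold change of 0.53 ± 0.11 (FDR = 0.00438). In all 3 the FGF1 mice stood above the vehicle mice. Rpl22 was called at 0.47 ± 0.10 (FDR = 0.00438), while its paralog Rpl22l1 had 0.03 ± 0.10 (FDR = 0.901). Rpl7l1, the paralog of Rpl7, had 0.32 ± 0.16 (FDR = 0.273), and Rpl36al 0.32 ± 0.11 (FDR = 0.0722).

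The small subunit held 14 calls of 31. Rps4x was at 1849, 2226 and 2380 CPM against 1164, 1350 and 1623, a fold change of 0.65 ± 0.10 (FDR = 0.000243). Rps3 (0.48 ± 0.09, FDR = 0.00207) and Rps6 (0.41 ± 0.09, FDR = 0.00975) were called with groups that did not overlap. Rpsa had 0.15 ± 0.10 (FDR = 0.452), Rps27l 0.03 ± 0.10 (FDR = 0.923) and Rps27 −0.05 ± 0.13 (FDR = 0.886), all overlapping. Of the paralogs and copies, Rpl6l alone passed, at 113, 149 and 283 CPM against 68.7, 92.8 and 120 (0.81 ± 0.22, FDR = 0.0495), and its groups overlapped. Rps19bp1, the gene that is not a ribosomal protein, had 0.07 ± 0.62 (FDR = 0.978).

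Depth in cluster 0 overlapped (1084 to 2111 UMIs per cell in FGF1 and 1102 to 1651 in vehicle mice), as did the mt share (8.41% to 12.4% against 9.34% to 12.99%). The OXPHOS share overlapped too, at 2.71% to 3.21% with FGF1 and 2.94% to 3.61% with vehicle, and so did that of neuron markers, of which 2 of 5 were lower. Cells with over 20% member or mt UMIs made up 9.67% to 26.9% of FGF1 and 3.77% to 5.50% of vehicle cells, and without them 13 of the members were called higher and the share overlapped, at 14.97% to 15.9% against 13.1% to 15.2%. The part of those cells in the result was not tested, and the limit is again set on the members. Leaving out 1 mouse gave 17 to 34 calls, the fewest (17) without vehicle replicate 25 and 19 without FGF1 replicate 7 or vehicle replicate 29, with 20 without FGF1 replicate 10 or vehicle replicate 27 and 21 without vehicle replicate 20.

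Cluster 0 and Day 1 tanycyte nuclei, which come from different mice, shared 6 called members, Rpl13a, Rplp0, Rps18, Rps3, Rps4x and Rps7, or 18.8% of the 32 and 40.0% of the 15. In cluster 0, 32 of all 84 members were called, a share close to 6 of 15, so the overlap is no result about these genes. Rps18, Rps3 and Rps4x were called in these 2 and in Day 1 ependymal nuclei.

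The other tanycyte-like clusters had fewer calls. In cluster 10, 9 of 82 members were higher, while 0.973% of all genes were, and in cluster 7, 4 of 83, while 0.968% of all genes were. All 9 and all 4 were also called in cluster 0. Rps4x led both, at 0.70 ± 0.12 (FDR = 0.00206) and 0.58 ± 0.12 (FDR = 0.00864). Clusters 0, 7 and 10 summed gave 21 of 84 members higher, while 2.29% of all genes were called higher. FGF1 mice gave 57.4%, 82.2% and 64.6% of the cells of clusters 0, 7 and 10. In the sum the member share overlapped between the groups, at 15.18% to 17.96% with FGF1 and 13.03% to 15.25% with vehicle.

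In OPC-like cluster 5, 5 of 83 members were higher (Rplp0, Rps4x, Rps9, Rpl7 and Rpl10a), while 1.2% of all genes were. Rplp0 was at 896, 1024 and 1216 CPM against 580, 643 and 745, a fold change of 0.65 ± 0.11 (FDR = 0.000170) with no overlap. In ependymal-like cluster 6, Rplp0 alone of 83 members passed, while 0.535% of all genes were called higher. It was at 1225, 1399 and 1690 CPM against 592, 968 and 1163, a fold change of 0.62 ± 0.15 (FDR = 0.0251), and the count was 0 without any 1 of 7 mice, vehicle replicates 20, 25, 27 and 29 and FGF1 replicates 10, 21 and 36. In oligodendrocyte-like cluster 11, where 88.0% of the cells came from FGF1 mice, Rpl7 alone of 82 passed (0.53 ± 0.15, FDR = 0.0283) with groups that overlapped, while 2.67% of all genes were called higher.

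**Figure D4:**
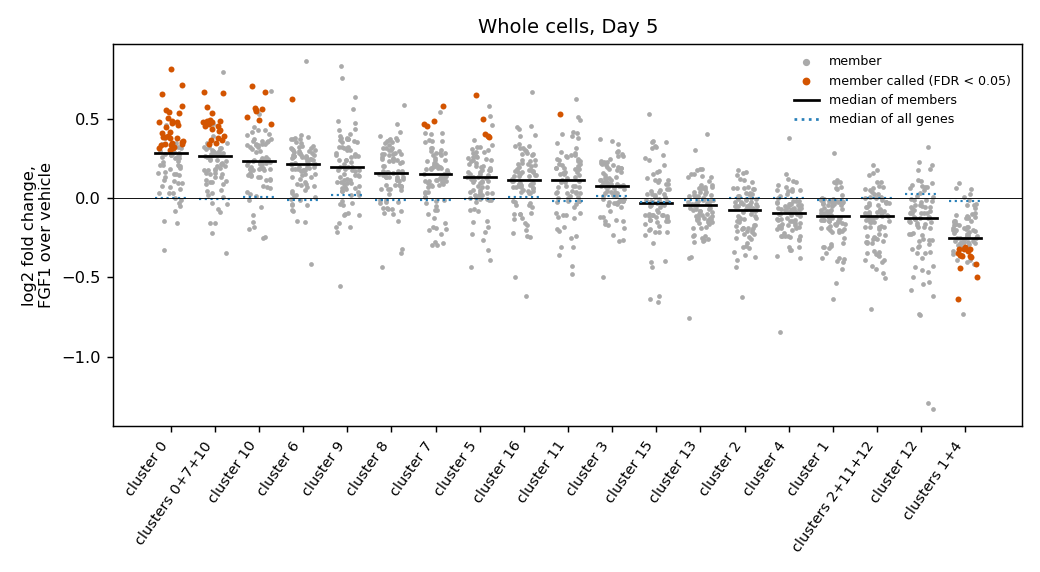
Log2 fold change, FGF1 over vehicle (y axis), of each member tested (points) in each Day 5 whole-cell cluster or sum of clusters (x axis), with members called at FDR below 0.05 in orange, the members' median as a black bar and the median of all genes dotted. Cluster 0 has 32 members called higher, and the sum of clusters 1 and 4 has 14 called lower.

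Astrocyte-like cluster 1 and oligodendrocyte-like cluster 2 gave 0 of 84 members each by edgeR, with 4 and 7 at an unadjusted p below 0.05, while 0.221% and 0.557% of all genes were called higher. In cluster 1, Rplp0 had 0.11 ± 0.13 (FDR = 0.838), with groups that overlapped, and DESeq2 called no member in either cluster. In the other 8 clusters, 0 of 653 tests of a member passed edgeR, 65 had an unadjusted p below 0.05, and medians ran from −0.13 to 0.19, while 0.616% of all tests were called in either direction.

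Cluster numbers divided the groups unequally, with FGF1 mice giving 16.2% of the cells of cluster 1 and 83.0% of those of cluster 4. With these 2 summed, 14 of 84 members were lower and none was higher, while 6.06% of all genes were called lower, and the members' median was −0.25. Rpl12 was at 375, 453 and 497 CPM (lowest, median, highest FGF1 mouse) against 530.1, 590.1 and 681, a fold change of −0.44 ± 0.10 (FDR = 0.00430). Every FGF1 mouse was below every vehicle mouse. Rps21 (−0.50), Rpsa (−0.41), Rps19 (−0.37) and Rpl22l1 (−0.37) were also lower, and Rplp0 had 0.01. In the same sums, 39 of 71 nuclear-encoded OXPHOS genes were lower, with a median of −0.41. Neuron markers were lower as well, 6 of 6. Leaving out 1 mouse gave 5 calls without FGF1 replicate 7, FGF1 replicate 21, vehicle replicate 20 or vehicle replicate 25, 8 without FGF1 replicate 10, 9 without FGF1 replicate 36 or vehicle replicate 27, and up to 18. For the oligodendrocyte-like sum of clusters 2, 11 and 12, 0 of 84 members passed edgeR and 15 had an unadjusted p below 0.05, with a median of −0.11, while 1.13% of all genes were called lower.

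The effect of FGF1 in cluster 0 was larger than in cluster 1 for 62 of 84 members by the interaction test, while 1.86% of all genes were called larger. Rps7 differed by 0.66 ± 0.12 on the log2 scale and Rplp0 by 0.64 ± 0.13. The count was 32 with another scaling and 46 by DESeq2. Leaving out 1 mouse gave 24 (without FGF1 replicate 10) to 76, with 33 to 39 without FGF1 replicate 21 or vehicle replicates 20, 25, 27 or 29.

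Across the 16 clusters, Rplp0 had a positive fold change in 16, from 0.10 to 0.72, and was called in 5. Rps4x, Rpl7, Rps7, Rps9 and Rpl4 were among those positive in 15. At the other end, Rpl13, Rps21 and Rps29 were negative in 16 of 16 and called in none. The clusters share their 12 mice, so these are not 16 independent results.

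Rpl13, of the large subunit, differed more between mice than between groups. In cluster 0 it ran from 220 to 2022 CPM in FGF1 mice, with a median of 530, and from 323 to 2330 in vehicle mice, with a median of 665. Its highest mouse stood 10.6 times above its lowest, while the median member had a ratio of 1.72. FGF1 replicate 28 and vehicle replicate 22 were its 2 highest mice in clusters 0, 1, 2 and 6, and the ratio was 15.04 in cluster 6, 16.0 in cluster 1 and 12.5 in cluster 2. The fold change was −0.33 ± 0.67 (FDR = 0.849) in cluster 0, with groups that overlapped.

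**Figure D5:**
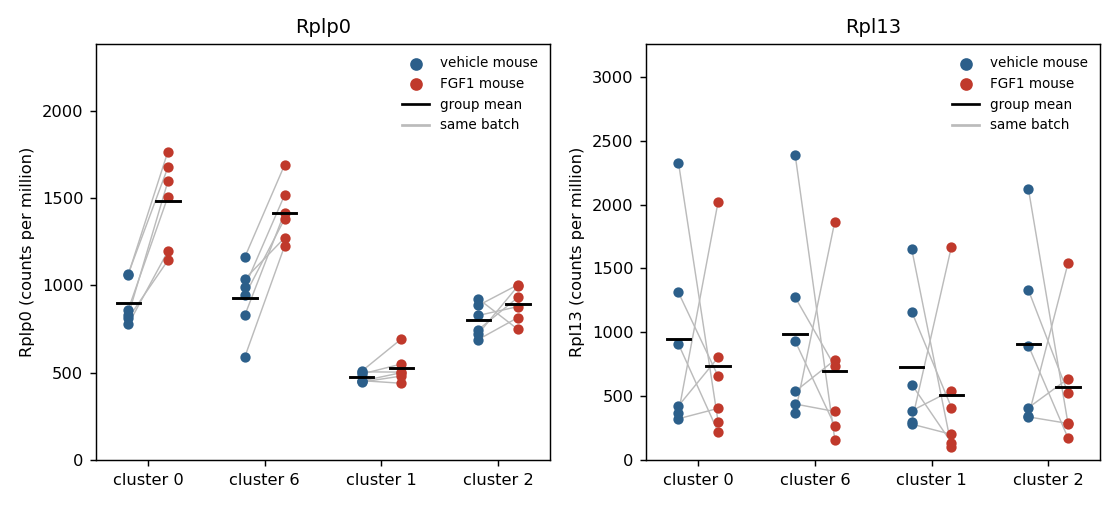
Level in CPM (y axis) of Rplp0 (left) and Rpl13 (right) in each mouse in whole-cell clusters 0, 6, 1 and 2 (x axis), with vehicle mice in blue, FGF1 mice in red, group means as black bars and grey lines joining mice of 1 batch. Rplp0 is higher in every FGF1 mouse than in any vehicle mouse in clusters 0 and 6, whereas Rpl13 spans 220 to 2330 CPM in cluster 0 with overlapping groups.

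Other genes of protein synthesis were read from lists kept beside the members. Over all genes tested, 5.38% were called higher in Day 1 tanycytes, 10.2% in Day 1 ependymal cells and 2.64% in cluster 0, and nothing particular to a list is read from its count. In Day 1 tanycytes, 4 of 28 translation factors were higher and none was lower, with a median of 0.88. These were Eif4a1, the helicase of cap-dependent initiation (2.29), the poly(A) binding protein Pabpc1 (1.81), and the elongation factors Eef1g (1.80) and Eef1a1 (1.71). Of the ribosome biogenesis genes, 2 of 14 were higher (Npm1 and Nop56; median 1.01), as was Gnb2l1, the ribosomal scaffold also known as Rack1 (2.17). Of mitochondrial ribosomal proteins 2 of 20 were higher (median 0.97), of nuclear-encoded OXPHOS genes 0 of 62 (median 0.63) and of mt genes 0 of 7 (median −0.49). In ependymal cells, 2 of 9 translation factors (Eif4a1 and Eef1a1; median 1.01), 2 of 3 biogenesis genes (Ncl and Npm1), 2 of 2 mitochondrial ribosomal proteins and 0 of 17 OXPHOS genes (median 0.03) were higher.

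In cluster 0, 14 of 40 translation factors were higher and none was lower, with a median of 0.26. Eif3e, a subunit of the initiation factor that binds the small subunit, had 0.92 ± 0.13, Eef1d, of the elongation factor complex, 0.84 ± 0.13 and Eef1a1, which delivers the aminoacyl-tRNA, 0.76 ± 0.11. The summed share of translation factors was 1.19% to 1.35% of UMIs in FGF1 and 0.912% to 1.09% in vehicle mice, without overlap. In ribosome biogenesis 3 of 46 genes were higher (Utp14a, Polr1c and Npm1; median 0.09), in mitochondrial ribosomal proteins 5 of 74 (median 0.17), and in nuclear-encoded OXPHOS 1 of 71, Ndufc2 (median −0.05). Gnb2l1 and Fau, cytosolic ribosomal proteins that the symbol rule leaves out, did not pass (0.23 and 0.19).

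The fold changes of members with and without the TOP tract at the GENCODE first base were set side by side. The median was 1.14 in 12 members with it and 1.39 in 52 without it in Day 1 tanycytes, 0.66 (10) and 0.77 (46) in Day 1 ependymal cells, and 0.25 (12) and 0.29 (64) in cluster 0. Of those with the tract, 1, 3 and 4 were called in these 3, and of those without it 14, 18 and 25. These are descriptions of the members tested, without a test.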

How the data were processed

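Droplet libraries (10x 3′ v2) were made from nuclei and whole cells of the hypothalamus. Per the labels, the authors counted reads with Cell Ranger 1.2 on GRCm38/mm10, for nuclei on a reference that included introns. The deposited tables hold raw UMI counts per gene and barcode with metadata that give batch, annotated type (nuclei) or cluster (whole cells). The authors removed doublets by Scrublet from whole cells only and, before clustering, regressed out UMI number and the ribosomal and mt percent. The stated limits on ribosomal or mt percent were passed by 893 nuclei and 5179 cells of the deposited tables, computed with the members here. Here no further cells were removed.

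Groups came from the labels. Counts were summed per mouse and type, with at least 10 barcodes per mouse and 2 mice per group. As an exception, the tanycyte comparison by day had 1 vehicle mouse on Day 5. Fits that left out 1 mouse held 1 mouse in a group in all Day 5 nuclei and in some Day 1 types. For such fits only effect sizes are given, except that the Day 1 total over all types can include calls from them. Genes were filtered by filterByExpr, scaled by TMM and tested two-sided with edgeR 4.0.16 (robust quasi-likelihood, R 4.3.3), with Benjamini-Hochberg FDR over all genes tested and a threshold of 0.05. The SE is the fold change divided by the root of F. The p-values measure the spread over mice, which a group of 1 mouse does not show. Effects between types were tested as interactions with the mouse as a block. The scripts were tested on counts simulated with known changes. A log2 change of 1 was called for 7.41% of changed genes in Day 1 tanycytes, 36.6% in Day 1 ependymal cells and 6.67% in Day 5 astrocyte nuclei. It was called for 79.6% in cluster 0 and 71.3% in cluster 1. In nuclei most changes of that size were thus missed, and a count of 0 there does not show that genes are unchanged. Alternatives were DESeq2 1.42.0, another scaling (RLE, and TMM without members and mt genes), no low-count filter, leaving out barcodes over the limits, the batch as a covariate, the replicate block and leaving out each mouse. The share of members was described per mouse. Depth is given with the results and limits genes of few UMIs most.

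The members and lists were chosen with earlier results of these data known. Genes are named as the 5 with the largest change among those called, the lowest fold change, Rplp0, Rplp1, Rplp2, Rpsa, Rps3, Rps6, Rpl10, Rpl22, the paralogs with their parents, and those called in most comparisons. Other names complete a list of calls or were chosen after their values were seen. Marker names required at least 3 markers at 2-fold over other cells and in 5% of cells, a minimum set after the data were seen. The same replicate number does not mark a shared animal, and its pairing correlations are given with the alternatives. A few genes are not reported here by name.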

Additional observations from a re-analysis of the deposited data

Results flagged for a closer look

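Of 154 groups of 4 to 10 mice examined, 10 held a mouse whose gap to the nearest mouse passed Dixon's 95% limit, and chance alone marks about 1 in 20. In FGF1 replicate 28, Rpl13 was far above the other FGF1 mice in cluster 0 (2022 CPM), cluster 6 (1867 CPM) and cluster 2 (1544 CPM), and Rpl22 was in cluster 1 (564 CPM). In cluster 0, Rplp1 was lowest in FGF1 replicate 21, at 3556 CPM. In cluster 1, vehicle replicate 29 was the lowest mouse for Rpl36al (303 CPM) and the highest for Rpl7l1 (42.8 CPM). In cluster 6, Rpl22 was lowest in FGF1 replicate 6, at 676 CPM. In cluster 2, Rpl10 was highest in FGF1 replicate 7 (1747 CPM) and Rpsa in FGF1 replicate 36 (1118 CPM).

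The effect of FGF1 differed between cell types in 2 interaction tests. It was larger in cluster 0 than in cluster 1 for 62 of 84 members, while 1.86% of all genes were called larger. It was larger in Day 1 tanycytes than in unmapped neurons, a reference chosen after seeing the data, for 38 of 83, while 2.28% of all genes were. The 38 became 10 by DESeq2 and 13 without vehicle replicate 2. Tanycytes against astrocytes, ependymal cells against astrocytes, tanycytes against ependymal cells and ependymal cells against unmapped neurons each gave 0 members by edgeR and by DESeq2, with 37, 1, 6 and 12 at an unadjusted p below 0.05 in edgeR.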

How the results depend on the processing

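Counts of members called are given first as reported. For Day 1 nuclei (37 in all), the replicate block gave 21, the batch covariate 14 and leaving out 1 mouse 9 to 54. In tanycytes (15) they were 29 with no low-count filter, 4 with the replicate block, 5 without barcodes over the limit, 2 with the batch covariate and 0 to 25 without 1 mouse. In ependymal cells (22) they were 8 by DESeq2, 11 with no filter, 12 with the batch, 2 without both FGF1 replicate 1 and vehicle replicate 2 (chosen after seeing the data) and 6 to 24 without 1 mouse. In Day 1 astrocytes (0) DESeq2 gave 1, leaving out the same pair gave 2 and leaving out 1 mouse gave 0. For Day 5 nuclei (2), DESeq2 gave 9, RLE scaling 4, no filter 6, the limit 1, the batch covariate (added after seeing the data) 7 and 1 mouse fewer 0 to 73. In the astrocytes among them, DESeq2 gave 9, no filter 4, the limit 1, the batch 1 and 1 mouse fewer 0 to 66, and the share difference of −2.23 went to −0.521 percentage points with the limit. For whole cells (52), no filter gave 125, the limit 26 and 1 mouse fewer 27 to 80. Cluster 0 (32) gave 13 with the limit, 21 with clusters 7 and 10 added, and 17 to 34. Cluster 1 (0) gave 14 with cluster 4 added. Cluster 6 (1) gave 2 with RLE scaling, no filter or the batch, and 0 to 2. The test by day in astrocytes (0) gave 3 with no filter. Cluster 0 against 1 (62) gave 32 with RLE scaling and 24 to 76. Tanycytes against unmapped neurons (38) gave 10 by DESeq2 and 13 to 46. Of the alternative values, 86 moved, 355 stayed as close as the rule asks and none reversed among called results, and the causes were not tested. The replicate block gave 17 in ependymal cells.

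Without 1 mouse, the share difference in percentage points ran from 1.32 to 3.17 in tanycytes, 1.06 to 1.35 in ependymal cells, −0.896 to 1.70 in Day 1 astrocytes, −3.13 to −1.32 in Day 5 astrocytes, 1.56 to 2.03 in cluster 0 and −0.933 to −0.0428 in cluster 1. Same-numbered mice did not deviate together, with correlations of −0.223 to 0.160 in tanycytes and −0.601 to 0.643 in astrocytes, so the numbers were not taken to pair mice. For mice of 1 batch the correlations were −0.309 to 0.000904 in tanycytes and −0.751 to 0.129 in astrocytes. With 3 mice per group the deviations of 1 group are tied to each other. The correlations therefore cannot show that mice of a batch or number share no effect. Differences given by batch are descriptions and were not used as matched comparisons.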
